A study of Mus musculus with 15 samples.

Results

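The proteasome genes described here are those whose symbol begins with Psma, Psmb, Psmc, Psmd, Psme, Psmf or Psmg and a digit, without the immunoproteasome genes Psmb8, Psmb9 and Psmb10. The chips read 46 such symbols, and 34 of them reached 4 times the chip's median value in at least 1 treatment, out of 15964 genes read in all and 6337 that reached that level. RNA came from A.E7 cells, a single mouse CD4 T helper clone, so all groups share 1 clone. The groups were mock-stimulated cells, cells given anti-TCR (an antibody to the T cell receptor, a treatment the array titles call anergic), and cells given anti-TCR with CSA (cyclosporin A, a calcineurin blocker), with PKCi (a protein kinase C inhibitor that the labels do not name further) or with Combo (Rapamycin against mTOR, PD98059 against MEK and SB203580 against p38). Each treatment was 1 pool of RNA from 2, 4 and 6 h, and each pool was read once on each of 3 chip types (A, B and C), which gave 15 arrays. With 1 array per treatment and chip type there was no replicate, so no difference below has a test or an SD over cultures, and precision is limited by there being 15 arrays.

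The 26S proteasome degrades ubiquitin-tagged proteins. Its 20S core is a barrel of outer rings of alpha subunits (Psma genes) and inner rings of beta subunits (Psmb genes), of which Psmb5, Psmb6 and Psmb7 carry the cutting sites, and its 19S cap holds ATPases (Psmc genes) that unfold the substrate and non-ATPase subunits (most Psmd genes) that bind ubiquitin and remove it. In T cells interferon gamma drives Psmb8, Psmb9 and Psmb10, which replace the cutting subunits in the immunoproteasome. The members held 24 of these 20S and 19S subunits, 3 activators that cap the barrel (Psme1, Psme3 and Psme4), the inhibitor Psmf1 and 5 assembly chaperones (Psmd5, Psmd10, Psmg2, Psmg3 and Psmg4). The last member, Psme3ip1, encodes a partner of Psme3 and matches the rule only by its letters.

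Of the 34 members, 30 were read on chip type A, 2 on B (Psmb5 and Psmf1) and 2 on C (Psmc3 and Psmd10). Most differences below therefore share the same 5 arrays, and a feature of 1 of those arrays cannot be told apart from its treatment. The 12 members that did not reach the level were Psma1, Psma8, Psmb11, Psmc1, Psmc4, Psmc5, Psmc3ip, Psmd2, Psmd9, Psmd12, Psmd13 and Psmg1. A dim probe set does not show that a gene was silent. Just inside the limit lay Psmc3 at 228.6 against a limit of 220.0, and just outside lay Psmd12 at 197.9 against 204.4. Psme2, the partner of Psme1, is read only together with Psme2b and is no member. The brightest of its 3 probe sets read 701.1 with mock, 316.9 with anti-TCR, 275.3 with CSA, 469.5 with PKCi and 379.0 with Combo. Of 9 CD4 T cell markers on the chips 8 reached the level, and Cd5 did not. Of the markers of B cells (6), of CD8 T cells (2) and of erythroid cells and neutrophils (5), 0 reached it, and of 7 macrophage and dendritic cell markers 1 did (Cd14, 203.4 to 293.3).

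All values are array intensities as deposited. For ratios, values below the chip type's median (the floor, 51.1 on A, 69.5 on B and 55.0 on C) were raised to it. The words rose and fell are kept for a difference of 2-fold or more in which the higher of both values was at least 4 times the floor. The only error these arrays give is the disagreement between probe sets of 1 gene on different chip types. Its SD, per log2 ratio, ranged from 0.48 for CSA against anti-TCR to 0.76 for anti-TCR against mock. A 2-fold difference is 1 on that scale, so a call near the limit is not far outside this disagreement.

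Most proteasome genes differed by less than 2-fold between treatments. Over the 5 treatments a member's highest value was a median of 1.56-fold its lowest, against 1.89-fold for all 6337 genes that reached the level. Of 34 members 9 (26.5%) were at least 2-fold apart in at least 1 of 7 comparisons, against 41.8% of all genes, and 25 in none. The 9 were Psmb6, Psmb7, Psmc3, Psmd3, Psmd4, Psmd14, Psme1, Psme3 and Psmg2. The plot of ratios to mock shows most members within 2-fold of mock under every treatment, with Psmd3 far to the right and Psmg2 far to the left. Less RNA per cell and fewer cells expressing a gene cannot be told apart in these pools.

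**Figure D1:**
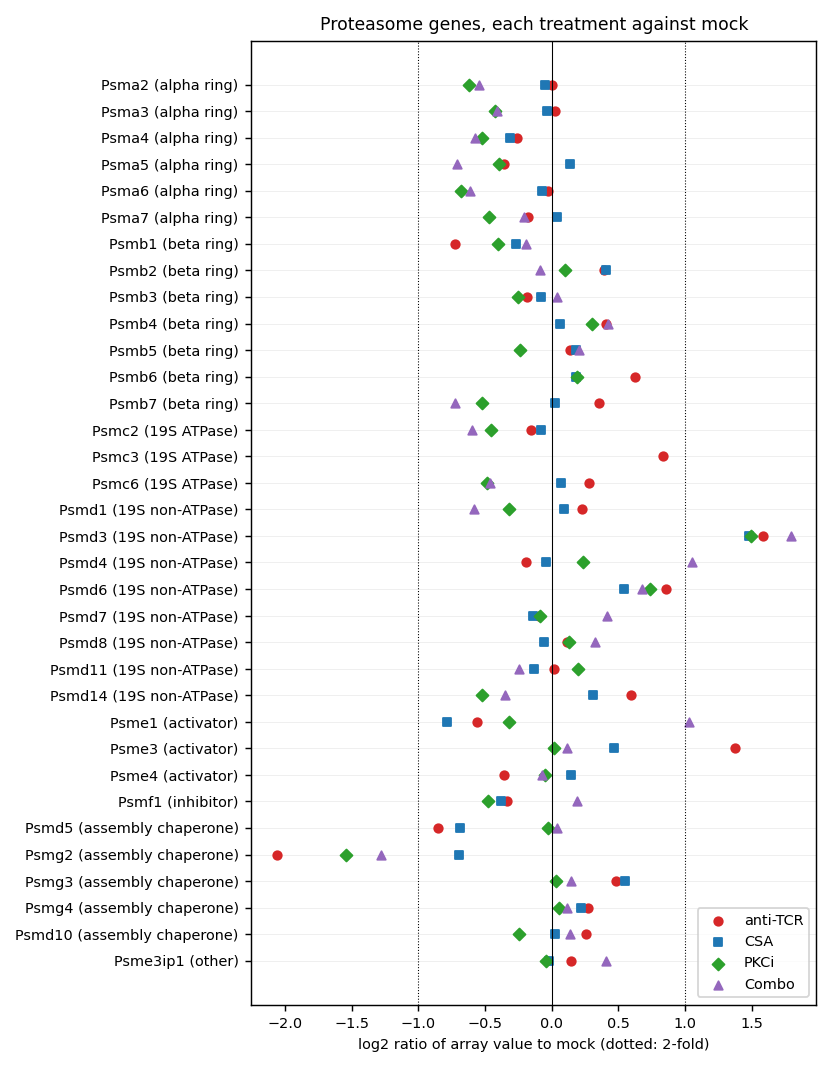
Log2 ratio of the array value to mock (x axis) for each of the 34 members (y axis, with role), with 1 symbol per stimulated treatment and dotted lines at 2-fold. A missing symbol means that neither array reached 4 times the floor. All 4 symbols of Psmd3 lie right of the 2-fold line (1.48 to 1.79), and Psmg2 reaches -2.06.

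The response to the receptor is read by setting anti-TCR alone against mock. Among 34 measured members 2 rose (Psmd3 and Psme3) and 1 fell (Psmg2), where 11.4% of all 5803 genes measured rose and 13.9% fell. The members' median log2 ratio was 0.07, and that of all genes was -0.08. Beyond 1 SD between probe sets lay 6 members (17.6%), against 35.4% of all genes. In the other comparisons this share was 12.1% to 18.8% of the members against 26.3% to 36.5% of all genes, except for Combo against anti-TCR, where it was 33.3% against 36.5%. The difference in these shares was not tested.

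The inhibitor arms are each compared with anti-TCR alone, and these 3 comparisons share the anti-TCR arrays. With CSA, 1 of 33 members rose (Psmg2; 4.84% of all genes rose) and 1 fell (Psmc3; 5.34%). With PKCi, 0 rose (14.3% of all genes) and 2 fell (Psmd14 and Psme3; 9.75%). With Combo, 2 rose (Psmd4 and Psme1; 7.95%) and 3 fell (Psmb6, Psmb7 and Psme3; 5.46%). The median log2 ratios of the members were -0.05, -0.22 and -0.18, beside 0.03, 0.03 and 0.02 for all genes. With PKCi 25 of 33 members lay below their anti-TCR value, beside 48.4% of all genes, and with Combo 20 of 33 did, beside 48.6%.

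Set against mock, where the anti-TCR arrays play no part, 1 of 33 members was 2-fold higher with CSA (Psmd3; 8.67% of all genes) and 0 were lower (7.81%). With PKCi 1 of 33 was higher (Psmd3; 6.9%) and 1 lower (Psmg2; 3.55%). With Combo 3 of 32 were higher (Psmd3, Psmd4 and Psme1; 8.39%) and 1 lower (Psmg2; 6.01%). These 3 comparisons share the mock arrays. The members' medians were 0.02, -0.24 and -0.01, beside -0.07, -0.05 and -0.06 for all genes. The PKCi median thus lay below that of all genes whether PKCi was set against mock or against anti-TCR. The Combo median lay below it against anti-TCR. Against mock the Combo median minus that of all genes ranged from -0.17 to 0.11 over the processing alternatives, so it had no settled sign.

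The alpha ring gave the most even pattern. These subunits form the gated ends of the barrel, and none of the 6 measured rose or fell in any comparison. Psma2 read 1118.7 with mock and with anti-TCR, 1083.1 with CSA, 727.8 with PKCi and 765.7 with Combo. Psma6 read 898.1, 878.9 and 855.8 with mock, anti-TCR and CSA, and 560.6 with PKCi and 586.8 with Combo. Psma3, read on an f-suffixed probe set that may bind related sequences, read 2843, 2897 and 2772 in the first 3 groups, and 2118 and 2134 with PKCi and Combo. In these 3 genes the PKCi and Combo arrays stood below the other 3, which lay close together. The PKCi log2 ratio to mock was -0.62, -0.68 and -0.42, and the Combo ratio -0.55, -0.61 and -0.41.

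Psma4 (688.5 with mock, 576.0 with anti-TCR, 554.5 with CSA, 478.3 with PKCi and 462.3 with Combo) also had its 2 lowest values with PKCi and Combo. Psma7 was lowest with PKCi (636.3) and highest with CSA (908.1), with mock at 883.4, anti-TCR at 780.8 and Combo at 765.6. Psma5 was lowest with Combo (259.0), while its PKCi value (321.7) was close to anti-TCR (331.0), and mock (423.9) and CSA (467.1) lay above both. All 6 alpha genes were thus lower with PKCi and with Combo than with mock and than with anti-TCR. Of all genes 53.9% were lower than mock with PKCi and 53.9% with Combo, and 48.4% and 48.6% were lower than anti-TCR. The median log2 ratio against anti-TCR was -0.37 with PKCi and -0.40 with Combo, and against mock -0.50 and -0.56. These arrays give no error for such a median. Since all 6 were read on chip type A, these 6 differences rest on the same arrays. A second probe set of Psma3, on chip type C, gave -0.57 with PKCi and -0.70 with Combo against anti-TCR, in the same direction, but 0.08 and -0.04 against mock.

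The beta ring was less uniform. Of 7 genes 0 rose or fell with anti-TCR, with log2 ratios to mock from -0.73 (Psmb1) to 0.62 (Psmb6). With Combo against anti-TCR 2 fell, both of them cutting subunits. Psmb6, which gives the caspase-like site, read 204.0 with mock, 314.4 with anti-TCR, 231.8 with CSA, 233.0 with PKCi and 143.1 with Combo, and the Combo value lay 2.20-fold below anti-TCR. Psmb7, the trypsin-like subunit, read 207.2, 265.1, 210.5, 144.4 and 125.4 in the same order on an f-suffixed probe set, 2.11-fold lower with Combo than with anti-TCR. Both genes were highest with anti-TCR and lowest with Combo. They passed the limit in 3 of 5 treatments each, and against mock neither changed 2-fold (Psmb7 -0.72 with Combo; Psmb6 below the limit on both arrays). With median scaling the Psmb7 ratio was -0.97, short of 2-fold.

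Psmb5, the chymotrypsin-like subunit, did not follow them. It read 1046 with mock, 1152 with anti-TCR, 1186 with CSA, 885.9 with PKCi and 1208 with Combo on an f-suffixed probe set of chip type B. Only PKCi lay below mock, by 0.24 on the log2 scale, and a second, s-suffixed probe set on chip type A gave 0.05 there. That probe set gave 0.88 for Combo against anti-TCR, where the first gave 0.07. The non-catalytic Psmb1 read 580.0 with mock, 350.3 with anti-TCR, 482.9 with CSA, 438.1 with PKCi and 508.0 with Combo, and its second probe set on the same arrays read 278.7 with anti-TCR against 654.0 with mock (log2 ratio -1.23). Psmb2 (375.2 to 530.6), Psmb3 (568.4 to 697.7) and Psmb4 (1346 to 1803, f-suffixed) each varied by less than 1.5-fold over all 5 treatments.

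Taking both rings, 11 of 13 genes had their lowest value with PKCi (6) or Combo (5). The same held for 16 of the 24 subunits of the 20S core and 19S cap (66.7%) and for 35.5% of all 6337 genes. The shares for the 2 rings were 46.2% with PKCi and 38.5% with Combo, beside 20.4% and 15.1% of all genes. With median scaling the count was 10 of 13. Psmb5, counted with PKCi, was read on chip type B, and its s-suffixed probe set on chip type A was lowest with mock (247.2). These counts describe 1 array per treatment and chip type and were not tested.

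**Figure D2:**
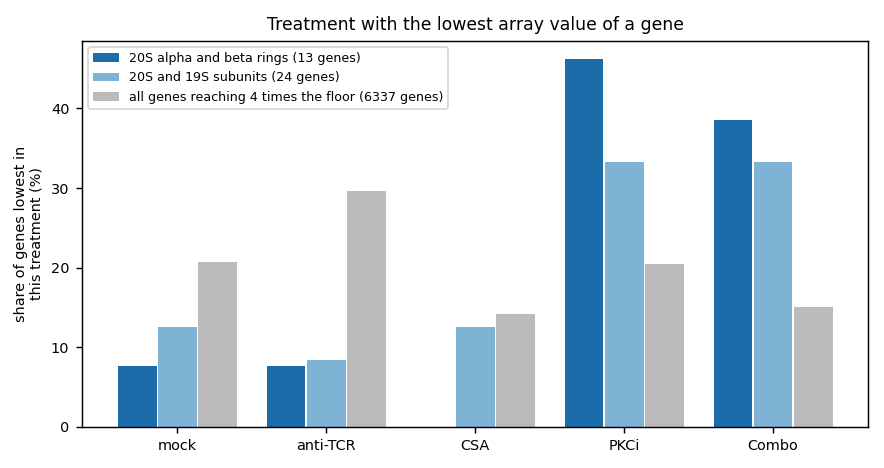
Share of genes (y axis, %) whose lowest array value fell in each treatment (x axis), for the 20S rings, for all measured 20S and 19S subunits and for all genes that reached 4 times the floor. The 20S bars stand at 46.2% for PKCi and 38.5% for Combo, beside 20.4% and 15.1% for all genes.

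In the 19S cap, 3 of 6 ATPases reached the level, and Psmc6 had its lowest values with PKCi and Combo, as Psma2 and Psma6 did, but its highest with anti-TCR. It read 1406 with mock, 1705 with anti-TCR, 1475 with CSA, 1003 with PKCi and 1022 with Combo, a log2 ratio against anti-TCR of -0.77 and -0.74. Its second probe set, on chip type B, gave -0.85 and -0.51. Against mock this second probe set gave no lower value, with 174.0 with mock, 176.0 with PKCi and 222.8 with Combo, all under the limit. Bright probe sets on 2 chip types were found for Psma3, Psmb5 and Psmc6. Against anti-TCR, Psma3 and Psmc6 were lower with both treatments on both probe sets measured, and Psmb5 was not. The third Psma3 probe set was under the limit in these comparisons. Beside 182.9 with anti-TCR, it was higher with PKCi (200.9) and lower with Combo (167.8). Psmc2, another ATPase of the ring, read 357.3, 321.4, 338.0, 260.8 and 235.5, again lowest with PKCi and Combo. Psmc3 read 128.0 with mock, 228.6 with anti-TCR, 91.0 with CSA, 202.3 with PKCi and 132.8 with Combo. Its 2.51-fold fall with CSA rests on the anti-TCR value, the only one above the limit, so the gene had to be high there to be counted. Its other probe sets were under the limit on all arrays. From anti-TCR to CSA, another on chip type C went from 70.4 to 141.4. Those on chip type A went from 131.2 to 97.4, from 103.8 to 78.7 and from 151.5 to 133.2.

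The non-ATPase subunits moved in different directions. Psmd3, a scaffold subunit of the lid, read 143.2 with mock, 428.8 with anti-TCR, 399.7 with CSA, 403.8 with PKCi and 496.2 with Combo. It was 2.99-fold higher with anti-TCR and between 2.79-fold and 3.47-fold higher in the inhibitor arms. All 4 stimulated arrays lay above mock, and none of the inhibitor arms differed from anti-TCR by more than 0.21 on the log2 scale. Psmd6, another lid subunit, was also lowest with mock and higher in all stimulated arms, with 421.0 with mock and 764.5, 613.0, 700.1 and 674.1 in the stimulated arms. Its largest ratio to mock was 1.82-fold, under the limit. Neither gene has a second bright probe set.

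Psmd14, the enzyme that removes ubiquitin from substrates, read 311.4 with mock, 469.8 with anti-TCR, 386.1 with CSA, 216.4 with PKCi and 244.3 with Combo. It fell 2.17-fold with PKCi, and its Combo value lay 1.92-fold below anti-TCR, just short of the limit. On the probe sets used, Psmc6, Psmd1, Psmb7 and Psma3 shared with it the highest value with anti-TCR and values below mock with PKCi and Combo. In Psma3 anti-TCR lay only 0.03 above mock on the log2 scale. Psmd1, the large scaffold of the base, read 778.9, 910.2, 832.0, 623.9 and 519.9. Psmd4, a ubiquitin receptor, went the other way. It read 303.8 with mock, 265.5 with anti-TCR, 295.2 with CSA, 358.4 with PKCi and 629.8 with Combo, so that Combo stood 2.37-fold above anti-TCR and 2.07-fold above mock. A second Psmd4 probe set, on chip type C and under the limit on all arrays, did not show this. It was highest with mock (178.7) and lowest with Combo (77.3). Psmd7 (217.3 to 319.2) and Psmd8 (305.0 to 398.6), both lid subunits, were also highest with Combo, by less than 1.5-fold, and Psmd11 was highest with PKCi (948.8 to 1290).

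**Figure D3:**
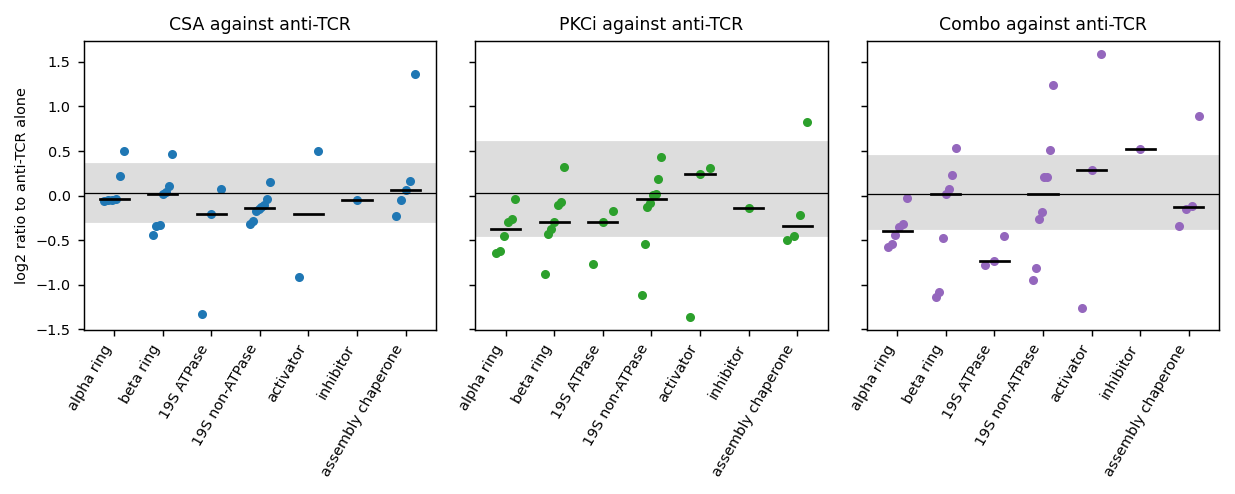
Log2 ratio of each inhibitor arm to anti-TCR alone (y axis) for the members of each role (x axis; 1 point per gene, black bar at the median), with the median (line) and quartiles (grey band) of all genes measured. The alpha ring points all lie below 0 with PKCi and Combo, while the non-ATPase points spread from -1.12 to 0.43 and from -0.94 to 1.25.

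Of the activators of the barrel, Psme3 and Psme1 passed 2-fold in a comparison and Psme4 in none. Psme3 encodes the nuclear activator PA28 gamma. It read 218.3 with mock, 566.0 with anti-TCR, 301.1 with CSA, 220.9 with PKCi and 236.6 with Combo. Anti-TCR stood 2.59-fold above mock, and PKCi and Combo lay 2.56-fold and 2.39-fold below anti-TCR, within 0.12 of mock on the log2 scale. CSA lay between, 1.88-fold below anti-TCR and 0.46 above mock. Psme3 is the one member that rose with anti-TCR and fell with PKCi and with Combo. Psme1, the alpha chain of the interferon-inducible PA28, read 264.1, 179.0, 153.2, 211.6 and 539.0 in the same order. Only the Combo array was high, 3.01-fold above anti-TCR and 2.04-fold above mock (0.99 on the log2 scale with quantile normalization, short of the limit). Psme4, the large activator PA200, stayed between 184.6 and 261.4.

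The inhibitor Psmf1, which binds the 20S core, read 479.1 with mock, 379.7 with anti-TCR, 367.8 with CSA, 343.4 with PKCi and 546.0 with Combo, and did not change 2-fold. Among the chaperones, Psmg2, which helps to build the alpha ring, read 396.3 with mock, 95 with anti-TCR, 244.7 with CSA, 135.7 with PKCi and 163.0 with Combo. It fell 4.17-fold with anti-TCR and was 2.58-fold higher with CSA than with anti-TCR alone. Against mock it was 2.92-fold lower with PKCi, 2.43-fold lower with Combo and 0.70 lower on the log2 scale with CSA. All stimulated arrays lay below mock, and mock and CSA alone passed the limit. Its partner Psmg1 was below the limit on all arrays, at 105.1, 34.7, 50.2, 76.3 and 133.8. Psmd5, a chaperone of the 19S base, read 413.0, 228.7, 256.2, 405.9 and 425.0. It was low with anti-TCR and CSA and at the mock level with PKCi and Combo, a difference of up to 1.86-fold. Another Psmd5 probe set, on chip type B and under the limit on all arrays, did not show this. It read 103.2, 108.1, 104.4, 148.0 and 176.9 in the same order. Psmg3 (289.5 to 424.1, r-suffixed), Psmg4 (261.2 to 315.0) and Psmd10 (248.9 to 351.2, i-suffixed), and Psme3ip1 (211.5 to 289.5), each varied by less than 1.5-fold on the probe sets used. An unsuffixed Psmg3 probe set on chip type C, under the limit on all arrays, varied more, from 112.9 with mock to 206.5 with PKCi.

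**Figure D4:**
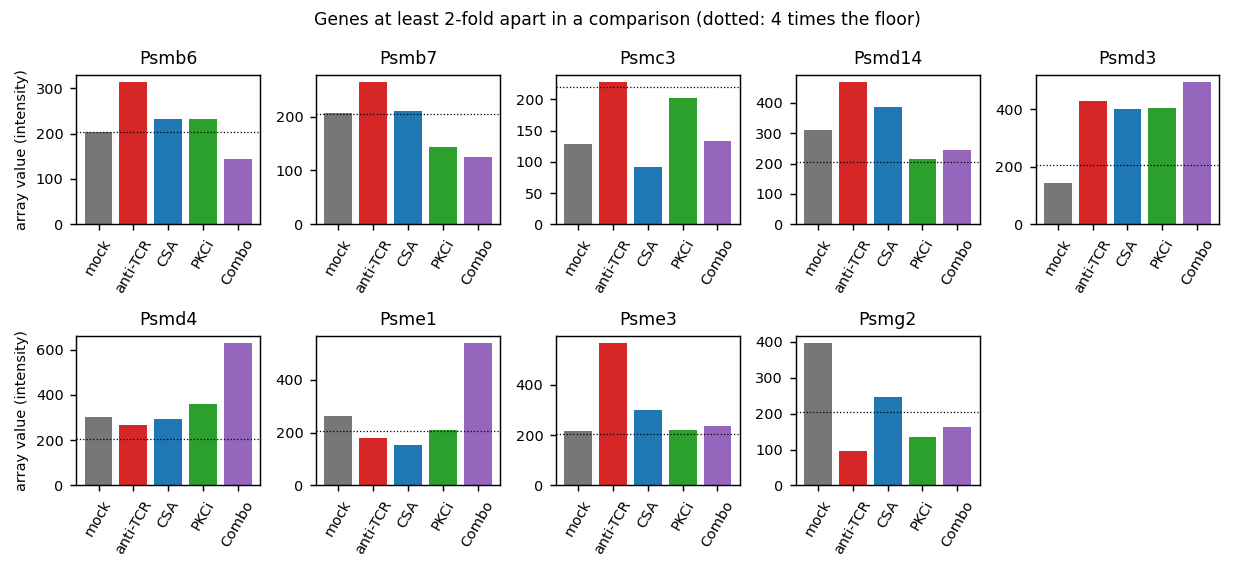
Array value (y axis, intensity from 0) in each treatment (x axis) of the 9 members at least 2-fold apart in a comparison, with a dotted line at 4 times the floor. Psme3, Psmd14, Psmb6, Psmb7 and Psmc3 are highest with anti-TCR, Psmd3, Psmd4 and Psme1 with Combo, and Psmg2 with mock.

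The promoters of 4 genes are shown because these genes gave the patterns above: Psma2, Psma6 and Psmc6, lowest with PKCi and Combo, and Psme3, highest with anti-TCR. Each is the 150 bases before an annotated start, on the plus strand of GRCm38.p6 from RefSeq, at chr13:14613092-14613241 (Psma2), chr12:55384072-55384221 and chr12:55398675-55398824 (both starts of Psma6), chr14:45329674-45329823 (Psmc6) and chr11:101316063-101316212 (Psme3). Capitals mark CCAAT (bound by NF-Y) and CCGGAAG (an ETS factor motif), or their reverse complements.
Psma2: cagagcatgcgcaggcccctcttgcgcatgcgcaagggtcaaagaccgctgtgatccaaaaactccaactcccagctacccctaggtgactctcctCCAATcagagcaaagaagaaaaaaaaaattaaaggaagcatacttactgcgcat
Psma6, upstream start: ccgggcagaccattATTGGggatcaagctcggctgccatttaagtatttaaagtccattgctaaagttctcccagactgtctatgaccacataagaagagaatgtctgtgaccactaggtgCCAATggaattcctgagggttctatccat
Psma6, downstream start: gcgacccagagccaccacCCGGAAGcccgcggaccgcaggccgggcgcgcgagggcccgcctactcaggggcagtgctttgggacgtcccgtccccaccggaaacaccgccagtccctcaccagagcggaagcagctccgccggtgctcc
Psmc6: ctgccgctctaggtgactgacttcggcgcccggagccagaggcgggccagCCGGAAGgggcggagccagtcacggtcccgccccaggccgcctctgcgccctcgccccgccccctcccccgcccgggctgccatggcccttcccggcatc
Psme3: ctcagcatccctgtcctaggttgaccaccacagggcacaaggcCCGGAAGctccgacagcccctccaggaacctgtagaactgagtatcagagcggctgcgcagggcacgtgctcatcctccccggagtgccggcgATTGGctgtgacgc

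Of the 34 members 27 matched the RefSeq promoter table, with 30 windows of 300 bases that reach past the start. CCGGAAG, searched on both strands, was found in 11 of the 30 (36.7%), in 8.86% of all 32851 windows and in 18.2% of the 6654 windows of genes that reached the level. CCAAT was found in 11 of 30 (36.7%), beside 37.4% and 35.7%. TGACNNNGC, the core of the antioxidant response element through which Nfe2l1 acts on proteasome genes, was found in 4 of 30 (13.3%; Psmb5, Psmb6, Psmc6 and Psme4), beside 12.4% and 14.3%. TGACGTCA, the cyclic AMP response element, was found in 0 of 30, beside 1.79% and 2.98%. CCGGAAG was found for Psma6, Psmc6 and Psmc2, whose lowest values were with PKCi and Combo, and not for Psma2, Psma3, Psma4, Psma5, Psma7, Psmd1 and Psmd14, of which the same is true. It was also found for Psmd4, Psmd6, Psmd11, Psme3, Psme4, Psmg3 and Psme3ip1, whose orders of treatments differ. A match describes these letters and does not show that a factor binds there.

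The cutting subunits can be set beside their immunoproteasome counterparts, which were left out of the members. Psmb9, which replaces Psmb6, read 793.2 with mock, 207.4 with anti-TCR, 262.4 with CSA, 553.7 with PKCi and 722.4 with Combo, whereas Psmb6 was highest with anti-TCR and lowest with Combo. Psmb10, which replaces Psmb7, read 234.3, 155.6, 228.4, 189.3 and 321.0. It was lowest with anti-TCR and highest with Combo, the reverse of Psmb7. Psmb8, which replaces Psmb5, read 1539, 1030, 1158, 2202 and 1860, highest with PKCi. It was read on chip type A, and Psmb5 was lowest with PKCi on its chip type B probe set. The s-suffixed chip type A probe set of Psmb5 was lowest with mock (247.2) and read 255.2 with PKCi. Against anti-TCR alone, Combo gave 1.80 for Psmb9 and -1.14 for Psmb6, 1.04 for Psmb10 and -1.08 for Psmb7, and 0.85 for Psmb8 and 0.07 for Psmb5 (log2 ratios). The s-suffixed chip type A probe set of Psmb5, on the same arrays as Psmb8, gave 0.88, so this last pair did not differ there. The unsuffixed Psmb5 probe set on these arrays, under the limit, went the other way, from 116.0 with anti-TCR to 69.8 with Combo. The difference between the partners was not tested.

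**Figure D5:**
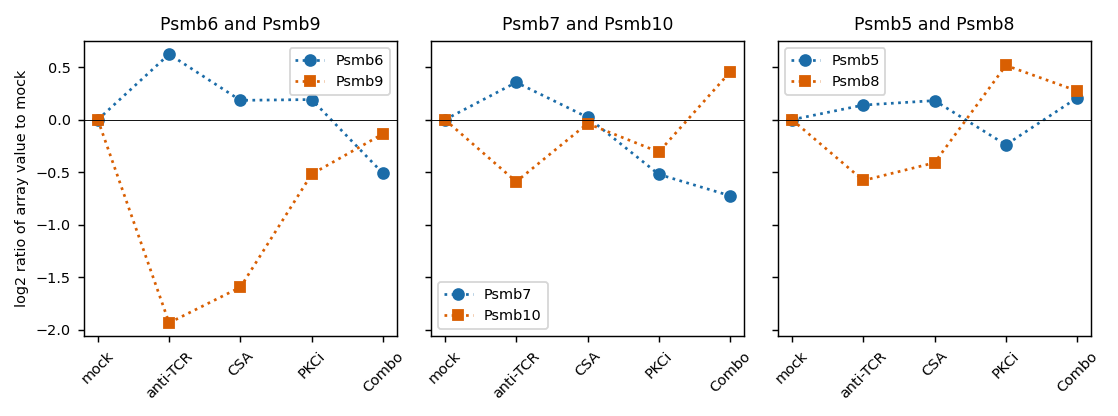
Log2 ratio of the array value to mock (y axis) in each treatment (x axis) for each cutting subunit (blue circles) and its immunoproteasome counterpart (orange squares), drawn for all arrays whether or not they reached 4 times the floor. With anti-TCR the blue points lie above 0 (0.62, 0.36 and 0.14) and the orange points below it (-1.94, -0.59 and -0.58).

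Of 7 immunoproteasome and peptide loading genes, 0 rose (11.4% of all genes did) and 2 fell (13.9%) with anti-TCR against mock. Psmb9 and the peptide transporter Tap1 fell (-1.94 and -1.33), and B2m, the class I light chain, was highest at 0.24. Against anti-TCR 0 changed with CSA, where 4.84% of all genes rose and 5.34% fell. With PKCi 4 of 6 rose, namely Psmb8, Psmb9, Tap1 and the loading factor Tapbp (14.3% of all genes rose). With Combo 4 of 7 rose, namely Psmb9, Psmb10, Tap1 and Tapbp (7.95% of all genes rose). B2m was lowest of the list with PKCi and with Combo, at -0.84 and -0.39. With CSA against anti-TCR the list ran from -0.70 (Tapbp) to 0.55 (Psmb10). The medians of this list were 1.07 with PKCi and 1.04 with Combo against anti-TCR, beside -0.22 and -0.18 for the proteasome members. Against mock they were -0.13 and 0.00, beside -0.24 and -0.01, so the opposite signs were seen only against the anti-TCR arrays, which all 4 of the first values share. In single genes against mock, 2 of 7 were lower with CSA (Psmb9 and Tap1, -1.60 and -1.01), beside 7.81% of all genes. The highest there was Psmb10 at -0.04. Tapbp alone was higher with PKCi (1.03) and Combo (1.22), beside 6.9% and 8.39% of all genes. B2m was again lowest with PKCi and Combo, at -0.59 and -0.15.

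Other genes that bind, build or regulate the proteasome were read for 14 of 17 listed symbols. With anti-TCR against mock 1 of 9 rose (Zfand5, a zinc finger protein that stimulates the proteasome, 2.33-fold) and 1 fell (Ngly1, the glycanase that processes Nfe2l1, 2.11-fold). Of all genes 11.4% rose and 13.9% fell there. Against anti-TCR 2 of 10 rose with CSA, where 4.84% of all genes rose. They were the assembly factor Pomp (309.6 to 625.8, 2.02-fold) and the proteasome-bound deubiquitinase Usp14 (63.1 to 234.4, 3.71-fold). Usp14 passed the limit with CSA alone, so it had to be high there to be counted. Only Ngly1 rose with PKCi (2.13-fold, of 8 measured) and with Combo (2.73-fold, of 10), beside 14.3% and 7.95% of all genes. With CSA, PKCi and Combo against anti-TCR 0 fell, beside 5.34%, 9.75% and 5.46% of all genes. Zfand5 was the lowest with PKCi (-0.48) and with Combo (-0.23). Against mock, CSA stood higher for Zfand5 (3.37-fold) and the ubiquitin ligase Ube3a (3.06-fold) and lower for Ngly1 (2.23-fold) among 11, and Combo higher for Ube3a (2.55-fold). Of all genes 8.67% were higher and 7.81% lower with CSA, and 8.39% higher with Combo. Ube3a passed the limit with CSA and Combo alone, so it had to be high there to be counted. With PKCi against mock 0 of 9 changed, and Zfand5 was highest at 0.74. Ecpas was the lowest of the list with PKCi and Combo against mock (-0.52 and -0.87), and Fbxo7 with CSA against anti-TCR (-0.12). Nfe2l1, the transcription factor known for raising proteasome genes when the proteasome is blocked, was level, between 280.8 and 378.2.

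Of 15 genes of ubiquitin supply and shuttling 9 were on the chips. The shuttle factor Ubqln1 rose with anti-TCR (254.2 to 808.1, 3.18-fold, on an r-suffixed probe set), and against mock it was also 4.67-fold higher with CSA, 2.56-fold with PKCi and 3.10-fold with Combo. It was the only one of 7 measured to change 2-fold with anti-TCR, where 11.4% of all genes rose and 13.9% fell. Ubqln2 was 2.32-fold lower with PKCi than with anti-TCR (627.7 to 271.0), the only 1 of 7 to fall, beside 9.75% of all genes. With CSA or Combo against anti-TCR 0 of 7 changed. There the ratios ran from -0.33 (Ubqln2) to 0.55 (Ubqln1) with CSA and from -0.77 (Faf1) to -0.02 (Rad23b) with Combo. Rad23b, a shuttle factor, was highest with PKCi against anti-TCR (0.35) and lowest with anti-TCR against mock (-0.29). The lowest against mock were Nsfl1c with CSA (-0.48) and Combo (-0.46) and Ubqln2 with PKCi (-0.83). Vcp, the ATPase that extracts ubiquitin-tagged proteins, was level between 1205 and 1535.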

How the data were processed

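Array intensity values were used as deposited by the authors. They are linear, and within a chip type the trimmed means differ by at most 0.242%, as after scaling each array; the method and software are not given in the sources used here. Groups came from the array titles. Of 36701 probe sets, 29131 carry 1 gene symbol in the platform annotation, 724 several and 6846 none, and only the first kind was used. Where a gene had several, the one brightest on average was taken. Suffixes f, i, r and s mark probe sets that may share sequence with other genes or break a design rule. Ratios, medians and counts were computed with Python 3.11.15, numpy 2.4.6 and pandas 2.3.3, and the steps were checked on simulated arrays. The members, lists and rules were chosen with earlier results of these data known. All members above the level are named, with list genes past 2-fold and the highest and lowest log2 ratio of each list. Alternatives were other scalings, floors, minimums and fold limits, means over bright probe sets, no suffixed probe sets, and the 20S and 19S subunits alone. A planned comparison of subunit protein sequences was not made.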

Additional observations from a re-analysis of the deposited data

How the results depend on the processing

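Each treatment has 1 array per chip type, so no test and no replicate check was possible. Of 19 calls on single genes, the values under the alternatives kept their direction in 161 of 161 cases and stayed past 2-fold in 159. Many of these values could not differ. A lower floor, other minimums, means over bright probe sets and leaving out suffixed probe sets did not alter the ratio of any call they kept. Calls that an alternative no longer measured are not among the 161. Only the scalings and the higher floor could move a value. The exceptions were Psme1 with Combo against mock under quantile normalization (0.99) and Psmb7 with Combo against anti-TCR under median scaling (-0.97). With 8 times the floor as minimum, 0 members changed for CSA against anti-TCR, CSA against mock and PKCi against mock, and 3 for Combo against anti-TCR. With no minimum, 2 changed for CSA against mock. Counting the 20S and 19S subunits alone left 1 changed for anti-TCR against mock and for CSA and PKCi against anti-TCR, 3 for Combo against anti-TCR, 1 for PKCi against mock and 2 for Combo against mock. With 1.5-fold as a change the counts were 9 for anti-TCR against mock, 7 for PKCi and 10 for Combo against anti-TCR, and 4, 5 and 9 for CSA, PKCi and Combo against mock. The members' median log2 ratio ranged from -0.30 to -0.15 for PKCi against anti-TCR, from -0.36 to -0.16 for PKCi against mock and from -0.34 to -0.13 for Combo against anti-TCR. For Combo against mock it ranged from -0.22 to 0.15 and for CSA against mock from -0.03 to 0.06, so these have no settled sign.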
